A study of Rattus norvegicus with 6 samples.

Results

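The 10 genes described here move inorganic phosphate, pyrophosphate or calcium across membranes, make or break down pyrophosphate, or encode a matrix protein that hinders mineral deposition. They are Slc20a1, Slc20a2, Xpr1, Enpp1, Ankh, Alpl, Mgp, Atp2b1, Atp2b4 and Atp2a2, and were taken from the authors' table by their gene symbol. All 10 are among the 13526 genes listed there, each on a single line. The cells were primary vascular smooth muscle cells (VSMCs) of wild-type rats, grown from the thoracic aorta of male animals and used after several passages. There were 3 samples in osteogenic media (OM group) and 3 samples in OM with 1 μM empagliflozin, an inhibitor of the kidney glucose transporter SGLT2 (OM plus EMPA group). Both groups received 10 mM β-GP, an organic phosphate donor, and 3.5 mM CaCl2, for 5 days according to the sample labels. The duration stated in the paper is shorter. The sample titles and the columns of the table name the medium Pi, a name that the paper gives to another medium with added inorganic phosphate, whereas the treatment protocol of the same samples and the paper's account of the sequencing give OM. The groups are called OM here after the protocol, and which medium the cells received could not be checked from the files. No library of cells in complete media was analysed here, so each value compares OM plus EMPA with OM and none describes the effect of OM itself. Neither the labels nor the paper say whether the samples came from separate animals or cultures, so the p-values cover no more than the spread among the 6 samples, and that spread may be technical.

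Calcium phosphate forms when calcium and phosphate exceed what inhibitors can hold in solution. The sodium-phosphate cotransporters PiT-1 (Slc20a1) and PiT-2 (Slc20a2) carry phosphate into VSMCs, and XPR1 is the known phosphate exporter. ENPP1 makes extracellular pyrophosphate from ATP, ANKH promotes its appearance outside the cell, and tissue-nonspecific alkaline phosphatase (Alpl) splits pyrophosphate into phosphate. Matrix Gla protein (Mgp) is a vitamin K-dependent inhibitor of arterial calcification. The plasma membrane pumps PMCA1 (Atp2b1) and PMCA4 (Atp2b4) export calcium, and SERCA2 (Atp2a2) pumps it into the sarcoplasmic reticulum.

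Both phosphate importers and the calcium exporter Atp2b1 were lower with empagliflozin, though the calls depended on how values were scaled and on single libraries. In TPM, a length-corrected abundance that can be set side by side between genes, the means in the OM plus EMPA group were 84.1% of the OM mean for Slc20a1, 80.6% for Slc20a2 and 75.6% for Atp2b1. Of the 8 genes tested, these 3 passed the test and 0 were called higher. Mgp, the most abundant of the 10, and Atp2a2 had means of 93.9% and 101.2% of the OM mean and did not pass. Alpl and Atp2b4 lay near or below 1 TPM and were not tested in the main comparison. The test was limma on log2(TPM + 1), run on 12564 genes whose mean reached 1 TPM, and an adjusted p of at most 0.05 was called.

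**Figure D1:**
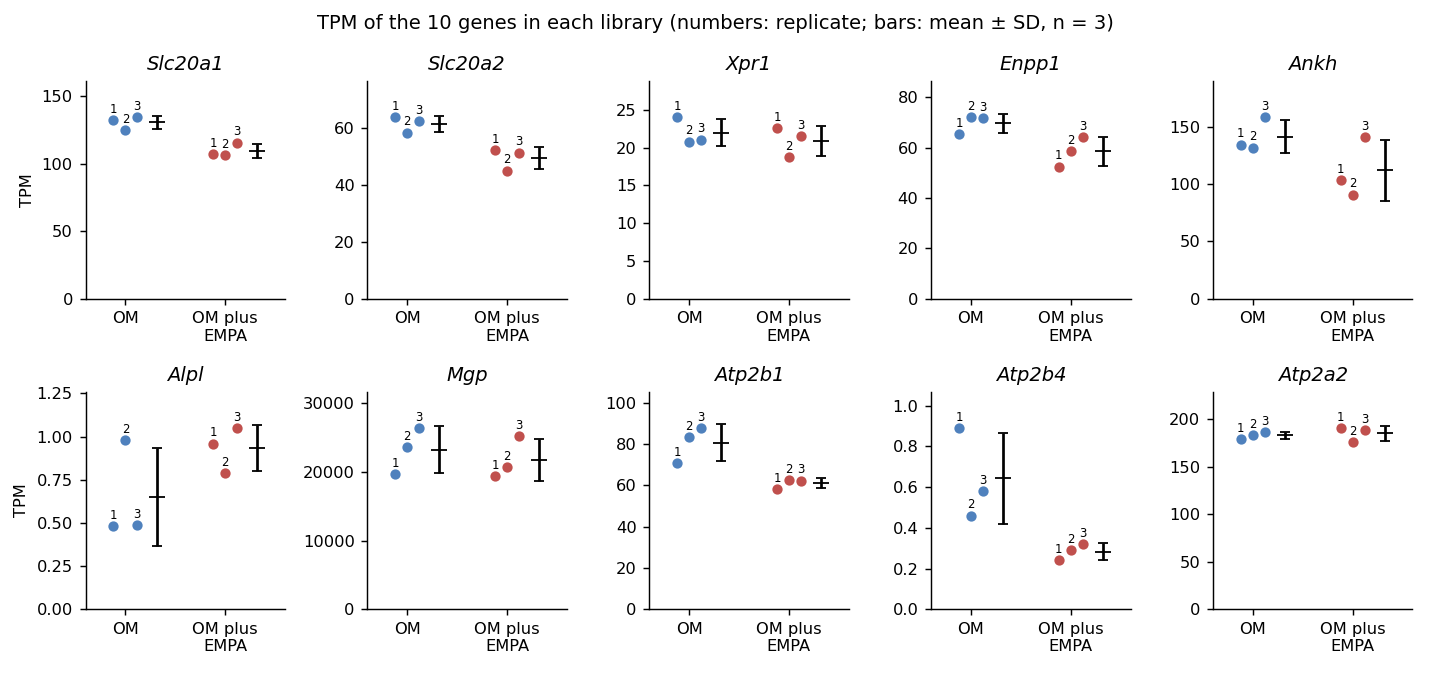
TPM of each gene (vertical axes from 0, a separate scale for each gene) in the 3 OM libraries (blue) and the 3 OM plus EMPA libraries (red), numbered by replicate, with mean ± SD (n = 3). The groups do not overlap for Slc20a1, Slc20a2, Enpp1, Atp2b1 and Atp2b4, and overlap for the other 5 genes.

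Among the 8 genes tested, 3 were called lower and 0 higher. Over all tested genes 4.86% were called lower and 2.06% higher in the same fit. The genes and the lists below were chosen with earlier results of these data known, so such shares are no test of a set. At an unadjusted p under 0.05 limma gave 5 lower and 0 higher genes among the 8. The share of all tested genes at that unadjusted threshold was not counted, here or below, so such counts have no background. The median log2 fold change of the 8 genes was -0.25, beside a median of -0.05 over all tested genes. Counted over all 10 genes, 5 had each OM plus EMPA library below each OM library, a pattern that 21.8% of all listed genes shared. The 3 calls depended on how TPM were scaled. After median-ratio scaling, which centres the libraries on the typical gene, 0 of the 8 genes were called lower (limma, 4 at an unadjusted p under 0.05) and 0 higher, beside 3.02% and 3.13% of all tested genes. Their median log2 fold change was then -0.19, beside 0.0002 over all tested genes, so the gap to all genes was close to that for the deposited TPM. This scaling turned the 611 lower and 259 higher calls over all genes into 380 and 393.

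Libraries also differed in their mitochondrial share and in cell type markers. TPM summed to 997954 to 998293 in each library, so the depth behind a value is unknown. Transcripts of the mitochondrial genome took 8.89 ± 0.85% of the total with OM alone and 10.65 ± 0.31% with empagliflozin (SD, n = 3 each). Their part in the differences was not tested apart from the rescaling without them, under which the 3 genes were again called lower. Of 10 smooth muscle markers 9 are listed and 8 were tested. Of these 8, Acta2, Tagln, Cnn1, Lmod1 and Myl9 were called higher and 0 lower, beside 2.06% and 4.86% of all tested genes. Acta2 went from 302 ± 57.6 to 488 ± 65 TPM (SD, n = 3). Smtn, Tpm2 and Myh11 did not pass, and the Myh11 mean was lower with empagliflozin (log2 fold change -0.17, adjusted p = 0.455 from limma). With 1 library left out, Acta2 kept its call in 2 of 6 fits, Tagln and Myl9 in 1 each, Lmod1 in 3 and Cnn1 in 5. The 9 listed genes summed to 3134.4 to 3672.6 TPM with empagliflozin and 2305.3 to 2807.0 TPM in the OM group. Tagln made up most of each sum. Of 8 endothelial markers 2 are listed, Erg and Egfl7 (0 called, summed 24.3 to 26.2 against 21.3 to 25.4 TPM), with Pecam1, Cdh5 and Vwf not listed. Of 8 macrophage and leukocyte markers 2 are listed, Cd68, which fell, and Cd14, with Ptprc and Adgre1 not listed. Cd68 kept its call in 2 of 6 fits with 1 library left out. Cd68 and Cd14 summed to 30.1 to 40.0 against 40.5 to 44.3 TPM. Of 6 adventitial fibroblast markers 5 are listed and 4 were tested. Pdgfra fell, with 0 of the 4 called under the median-ratio scaling. Pdgfra kept its call in 0 of 6 fits with 1 library left out. The 5 listed genes summed to 895.4 to 949.0 against 996.4 to 1020.3 TPM. Most of this sum was Lum, with a mean at 94.1% of the OM mean. The means of Pi16 and Dpep1 were 123.5% and 101.4% of the OM mean, and those of Pdgfra and Dpt were lower. Of 7 osteoblast and osteocyte markers 1 is listed, Runx2, at 11.3 to 12.5 against 11.3 to 14.0 TPM, which did not pass. The part of these markers in the results below was not tested, and in bulk RNA fewer cells of a type and less RNA per cell cannot be told apart.

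The 10 genes covered a wide range of levels. Mgp ranked 2 of 13526 genes by mean TPM and made up 1.94% to 2.65% of all TPM in a library. Next came Atp2a2 with a mean of 184 TPM over the 6 libraries, Ankh with 126.8 and Slc20a1 with 120.0. Ankh and Slc20a1 overlapped, Ankh being higher in 4 of 6 libraries. Below them lay Atp2b1 with 70.9, Enpp1 with 64.1 and Slc20a2 with 55.5 TPM. The ranges of neighbours among these 3 overlapped, although Enpp1 exceeded Slc20a2 in 6 of 6 libraries and Atp2b1 exceeded Enpp1 in 5 of 6. Xpr1 stood alone at 21.4 TPM. Alpl and Atp2b4 closed the order at 0.79 and 0.46 TPM, with overlapping ranges. Their ranks among all listed genes were 12790 and 13185.

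Of the 10 genes, 6 have a promoter window in the RefSeq table of build GRCr8, from 250 bases before to 50 bases after a transcript start. The windows of both plasma membrane calcium pumps and of Alpl are shown because the pumps are close relatives with very different levels here, and Alpl is the other gene near 1 TPM. Capitals mark matches, on either strand, to the GC box GGGCGG or to the CCAAT box, and matches may overlap each other.
Atp2b1 (chr7:35622211-35622510, + strand): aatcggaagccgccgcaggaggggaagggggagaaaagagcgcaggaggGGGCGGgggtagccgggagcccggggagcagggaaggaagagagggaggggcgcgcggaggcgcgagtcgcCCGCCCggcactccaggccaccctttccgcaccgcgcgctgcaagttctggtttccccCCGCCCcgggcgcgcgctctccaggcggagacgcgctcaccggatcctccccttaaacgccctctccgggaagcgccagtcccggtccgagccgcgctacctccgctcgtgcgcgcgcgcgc
Atp2b4 (chr13:47758827-47759126, - strand): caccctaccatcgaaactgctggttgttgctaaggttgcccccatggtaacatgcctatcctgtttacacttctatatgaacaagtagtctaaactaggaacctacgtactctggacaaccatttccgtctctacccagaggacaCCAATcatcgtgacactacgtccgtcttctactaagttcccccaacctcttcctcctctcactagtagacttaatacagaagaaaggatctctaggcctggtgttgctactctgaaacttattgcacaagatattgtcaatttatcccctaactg
Alpl (chr5:155289736-155290035, - strand): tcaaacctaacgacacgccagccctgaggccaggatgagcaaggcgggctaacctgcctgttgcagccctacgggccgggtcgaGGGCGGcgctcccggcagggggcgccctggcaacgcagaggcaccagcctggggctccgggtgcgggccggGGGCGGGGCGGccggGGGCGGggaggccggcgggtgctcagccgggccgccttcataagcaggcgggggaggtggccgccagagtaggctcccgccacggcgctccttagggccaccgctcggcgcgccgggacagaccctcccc

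The Atp2b1 window holds 3 matches to the GC box at a GC content of 74.3%, the Alpl window 4 matches and 76.3%, and the Atp2b4 window 0 matches, 1 CCAAT box and 44.7%. The other 3 windows, of Xpr1, Ankh and Atp2a2, have a GC content of 71.3% to 79% and 2 to 5 GC box matches, so Atp2b4 is the exception among the 6. Over all 33469 windows of the table the median GC content is 51.7%, 33.1% hold a GC box and 37.5% a CCAAT box. The letters TATAAA, on either strand, occur in 0 of the 6 windows and in 14.2% of all windows. The start of the Atp2b4 window may lie inside the gene, and which start these cells use was not tested. A GC-rich window went with levels from below 1 TPM (Alpl) to 184 TPM (Atp2a2).

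The phosphate importers were lower in each OM plus EMPA library than in each OM library. By the coordinates of the authors' table, whose build is not stated, Slc20a1 (ENSRNOG00000018567) spans chromosome 3 from 116427098 to 116441051 on the plus strand. Slc20a2 spans chromosome 16 from 69460462 to 69552210 on the minus strand. Slc20a1, which encodes PiT-1, was at 106.92, 106.34 and 115.51 TPM in OM plus EMPA replicates 1 to 3 and at 132.03, 124.91 and 134.20 TPM in the OM replicates. The spread within a group was small, with a CV of 4.69% in the OM plus EMPA group and 3.73% in the OM group. Slc20a1 fell by 0.25 on the log2(TPM + 1) scale (SE 0.05, 95% interval -0.36 to -0.13, adjusted p = 0.0284 from limma). Slc20a2, which encodes PiT-2, was at 52.23, 45.00 and 51.38 TPM with empagliflozin and at 63.76, 58.38 and 62.31 TPM in the OM group. In both groups its lowest value was in replicate 2. Slc20a2 fell by 0.31 (SE 0.07, 95% interval -0.46 to -0.15, adjusted p = 0.037 from limma).

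Both calls rested on the full set of libraries. Slc20a1 kept its call when OM plus EMPA replicate 3 (adjusted p = 0.0337 from limma) or OM replicate 2 (0.0374) was left out and lost it without any of the other 4 libraries (0.0829 to 0.0975). Slc20a2 lost its call without any 1 of the 6 libraries (0.0503 to 0.113, nearest the threshold without OM replicate 2). With median-ratio scaling the adjusted p was 0.0663 for Slc20a1 and 0.0575 for Slc20a2, with log2 fold changes of -0.19 and -0.25. The direction was the same in each of these fits.

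The phosphate exporter gene Xpr1 was at 22.58, 18.71 and 21.50 TPM with empagliflozin and at 24.02, 20.81 and 21.07 TPM in the OM group. The groups overlapped. Its log2 fold change of -0.07 (SE 0.09, 95% interval -0.27 to 0.13) did not pass (adjusted p = 0.677 from limma), and was 0.01 without OM plus EMPA replicate 2.

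Ratios between genes within a library do not depend on how libraries are scaled. Slc20a1 exceeded Slc20a2 by 2.05, 2.36 and 2.25 times in OM plus EMPA replicates 1 to 3 and by 2.07, 2.14 and 2.15 times in the OM replicates. These values overlapped, and the difference was within the spread of the samples (exact permutation test, two-sided, p = 0.5, n = 3 per group). The ratio of Xpr1 to Slc20a1 was 0.191 ± 0.018 (SD, n = 3) with empagliflozin and 0.169 ± 0.013 (SD, n = 3) in the OM group, and the groups again overlapped (exact permutation test, p = 0.2). Over the 5 ratios examined the smallest adjusted p was 0.333 (exact permutation test, two-sided). With 3 samples against 3 the smallest p an exact test can give is 0.1, so no ratio could pass.

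**Figure D2:**
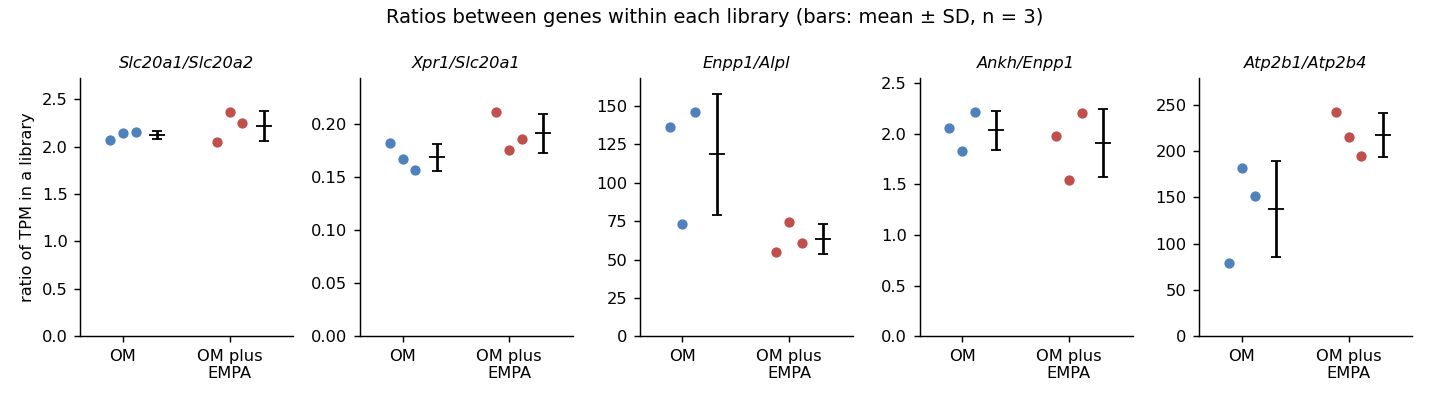
Ratio of the TPM of 2 genes within a library (vertical axes from 0) in the 3 OM libraries (blue) and the 3 OM plus EMPA libraries (red), with mean ± SD (n = 3). Slc20a1/Slc20a2 lies between 2.05 and 2.36 in all 6 libraries, and Atp2b1/Atp2b4 is the 1 ratio whose groups do not overlap.

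Of the genes of pyrophosphate supply, neither Enpp1 nor Ankh passed the test, and both had lower means with empagliflozin. Enpp1 was at 52.50, 58.70 and 64.21 TPM in the OM plus EMPA group and at 65.43, 72.04 and 71.60 TPM in the OM group. The groups did not overlap, by a margin of little more than 1 TPM between the highest OM plus EMPA and the lowest OM value. Its log2 fold change was -0.25 (SE 0.08, 95% interval -0.43 to -0.07, adjusted p = 0.0969 from limma), close to that of Slc20a1 with a wider spread. Ankh was at 103.78, 90.82 and 141.28 TPM with empagliflozin and at 134.50, 131.85 and 158.40 TPM in the OM group. Replicate 3 was the highest of both groups, and OM plus EMPA replicate 3 lay within the range of the OM libraries. The log2 fold change of Ankh was -0.36 (SE 0.15, 95% interval -0.71 to -0.01, adjusted p = 0.2 from limma), and without OM plus EMPA replicate 3 it was -0.53 and passed (adjusted p = 0.0333 from limma).

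Alpl, the phosphatase that removes pyrophosphate, was at 0.96, 0.79 and 1.05 TPM in the OM plus EMPA group and at 0.48, 0.98 and 0.49 TPM in the OM group. OM replicate 2 lay among the OM plus EMPA values, so the groups overlapped. The mean of 0.93 TPM against 0.65 TPM places Alpl with Atp2a2 as the 2 of the 10 genes whose OM plus EMPA mean was the higher. In a fit of all listed genes without the filter on low values its log2 fold change was 0.24 (95% interval -0.09 to 0.57, adjusted p = 0.356 from limma). The ratio of Enpp1 to Alpl was 54.7, 74.3 and 61.2 with empagliflozin and 136, 73.5 and 146 in the OM group (exact permutation test, p = 0.2). The low ratio of OM replicate 2 came from its Alpl value. With 1 TPM added to both genes the log2 difference of this ratio went from -0.85 to -0.49 (exact permutation test, p = 0.1, the smallest it can give). The ratio of Ankh to Enpp1 was 1.91 ± 0.33 (SD, n = 3) against 2.03 ± 0.19 (SD, n = 3) (exact permutation test, p = 0.6).

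Mgp was listed at 19399.9, 20763.3 and 25253.0 TPM in the OM plus EMPA group and at 19649.3, 23646.1 and 26408.6 TPM in the OM group. Replicate 1 was the lowest and replicate 3 the highest in both groups, and the groups overlapped along most of their range. The log2 fold change was -0.09 (SE 0.14, 95% interval -0.42 to 0.24, adjusted p = 0.739 from limma), and was 0.01 without OM replicate 3. The interval is wide beside that of Slc20a1 or Atp2a2, so a moderate difference in either direction was not detectable with these samples. Mgp lies on chromosome 4 from 169766279 to 169769667 (minus strand).

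Of the calcium pumps, Atp2b1 was lower and Atp2a2 did not pass. In the coordinates of the authors' table Atp2b1 spans chromosome 7 from 33735587 to 33845207 on the plus strand, a position not comparable with that of its promoter window above, which is of build GRCr8. Atp2b1, the more abundant plasma membrane pump in these cells, was at 58.14, 62.52 and 62.34 TPM with empagliflozin and at 70.92, 83.48 and 87.77 TPM in the OM group. The groups were well apart, and OM replicate 1 was the nearest to the OM plus EMPA values. Atp2b1 fell by 0.39 on the log2 scale (SE 0.08, 95% interval -0.58 to -0.21, adjusted p = 0.0291 from limma). Without OM replicate 1 the change was -0.48 and the call held (adjusted p = 0.0123 from limma), and without any 1 of the other 5 libraries the call was lost (0.066 to 0.0842). With median-ratio scaling the log2 fold change was -0.34 (adjusted p = 0.059 from limma).

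Atp2b4 was at 0.24, 0.29 and 0.32 TPM with empagliflozin and at 0.89, 0.46 and 0.58 TPM in the OM group. The groups did not overlap, and OM replicate 1 was far above the other OM values. Its mean was below 1 TPM, so it was left out of the main comparison. Fitted without the filter its log2 fold change was -0.35 (95% interval -0.63 to -0.06, adjusted p = 0.147 from limma). The ratio of Atp2b1 to Atp2b4 was 242, 216 and 195 with empagliflozin and 79.7, 182 and 151 in the OM group. The groups did not overlap (exact permutation test, p = 0.1, the smallest it can give), and with 1 TPM added to both genes the log2 difference of the ratio turned from 0.74 to -0.04, since Atp2b4 lies below that amount.

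Atp2a2 was at 190.73, 176.00 and 188.41 TPM with empagliflozin and at 178.94, 183.03 and 186.72 TPM in the OM group. The values interleaved, and the CV within a group was 4.28% and 2.13%. The log2 fold change was 0.02 (SE 0.04, 95% interval -0.09 to 0.12, adjusted p = 0.857 from limma), the narrowest interval of the 8 tested genes, and was -0.01 without OM plus EMPA replicate 1. Atp2b1, Atp2b4 and Atp2a2 are the 3 members annotated to KEGG calcium signalling in the authors' table, and Slc20a1, Slc20a2, Ankh and Xpr1 the 4 annotated to phosphate ion transport in GO.

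**Figure D3:**
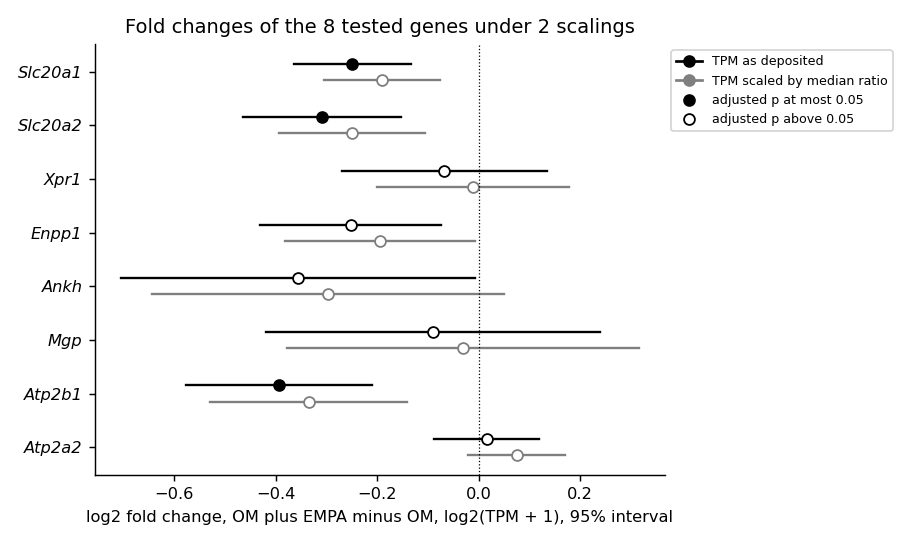
Difference in mean log2(TPM + 1) between OM plus EMPA and OM, negative where lower with empagliflozin, with 95% intervals from limma for the 8 tested genes, for TPM as deposited (black) and scaled by the median ratio (grey). Slc20a1, Slc20a2 and Atp2b1 are filled (adjusted p at most 0.05) for the deposited TPM, at -0.25, -0.31 and -0.39, and no point is filled after the other scaling.

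Other genes of phosphate and pyrophosphate metabolism were read from a list of 33 further genes, of which 19 are listed and 18 were tested. The sodium-phosphate cotransporters Slc34a1, Slc34a2 and Slc34a3 are not listed. Of the 18 genes, 2 fell and 0 rose, beside 4.86% called lower and 2.06% called higher over all tested genes. At an unadjusted p under 0.05 limma gave 3 higher and 2 lower, with no share over all genes to set beside them. The median log2 fold change was -0.0012, beside -0.05 over all tested genes. The 2 that fell are relatives of Enpp1, as is Enpp3, whose mean was higher with empagliflozin and which did not pass. Enpp2 encodes autotaxin, which makes lysophosphatidic acid. It was at 9.19, 7.33 and 10.13 TPM with empagliflozin and at 21.53, 17.27 and 26.32 TPM in the OM group, and its log2 value fell by 1.19 (SE 0.16, limma adjusted p = 0.00711). Enpp4, another ectonucleotide phosphodiesterase, was at 13.51, 12.64 and 14.84 TPM against 23.24, 18.93 and 21.79 TPM, a fall by 0.60 on the log2 scale (SE 0.09, limma adjusted p = 0.0112). Both kept their calls without any 1 library (largest adjusted p 0.0303 and 0.0457 from limma) and after median-ratio scaling (0.00898 and 0.0143).

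The log2 fold changes of the genes next in the list were positive and did not pass. Fam20c, the secretory pathway kinase mutated in Raine syndrome, was at 76.6 ± 3.09 against 65.3 ± 7.11 TPM (log2 fold change 0.23, adjusted p = 0.126 from limma), and Enpp3 was at 40.3 ± 2.24 against 33.5 ± 5.3 TPM (0.27, adjusted p = 0.183). Abcc6, the transporter whose loss causes pseudoxanthoma elasticum with low pyrophosphate, was listed at 0.1 to 0.29 TPM and not tested.

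In a list of 46 further calcium handling genes, 29 symbols are listed, on 30 lines of the table, and 28 lines were tested. Calm2 rose and 0 fell. At an unadjusted p under 0.05 limma gave 2 higher and 3 lower, again with no share over all genes to set beside them. The median log2 fold change was -0.06, beside -0.05 over all tested genes. With 1 of 28 called, this list stood near the 2.06% of all tested genes called higher (4.86% lower). Calm2, a calmodulin gene, was at 619.33, 617.48 and 615.39 TPM with empagliflozin and at 558.53, 560.34 and 547.13 TPM in the OM group (log2 fold change 0.15, SE 0.04, limma adjusted p = 0.0485). Its groups were far apart relative to their spread, but the call was lost without any 1 library (0.0933 to 0.162) and in the fit without the filter on low values. Reads of Calm2 could be split with near-identical copies. Of the remaining genes with the smallest p, Slc24a3, a sodium-calcium exchanger, was at 6.21 ± 1.09 against 4.65 ± 0.84 TPM (0.35, adjusted p = 0.2), Orai3, a store-operated calcium channel, at 9.23 ± 0.19 against 10.8 ± 0.22 TPM (-0.20, adjusted p = 0.116), and Micu2, a regulator of mitochondrial calcium uptake, at 38.3 ± 1.32 against 42.4 ± 1.54 TPM (-0.14, adjusted p = 0.143).

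The last list held 20 genes of mineralization regulators, Gla proteins and vitamin K enzymes, of which 14 are listed and were tested. Of these 2 rose and 3 fell (5 of 14), with a median log2 fold change of 0.13 beside -0.05 over all tested genes, of which 2.06% were called higher and 4.86% lower. The list was chosen with earlier results of these data known, so these shares are no test of it. The 2 that rose act on Gla proteins such as Mgp. Ggcx, the gamma-carboxylase that makes Gla residues, was at 121.96, 112.26 and 105.89 TPM with empagliflozin and at 97.15, 96.15 and 90.29 TPM in the OM group (log2 fold change 0.26, SE 0.06, limma adjusted p = 0.0446). Vkorc1, which recycles vitamin K for that reaction, was at 31.58, 33.96 and 33.57 against 27.54, 26.78 and 27.39 TPM (0.27, SE 0.05, adjusted p = 0.0237). Under median-ratio scaling the Gla protein genes Gas6 and Pros1 were also called higher, making 4 higher and 1 lower, beside 3.13% and 3.02% of all tested genes. Gas6 and Pros1 had log2 fold changes of 0.21 and 0.24 for the deposited TPM (adjusted p = 0.0505 and 0.0564 from limma), and are named here after their values were seen, because the scaling changed their calls.

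The 3 that fell were Spp1, Dcn and Bmp2. Spp1, which encodes osteopontin, a phosphoprotein that binds hydroxyapatite, was at 1288.06, 914.06 and 1557.25 TPM with empagliflozin and at 2546.46, 1940.43 and 2750.21 TPM in the OM group (log2 fold change -0.96, SE 0.2, limma adjusted p = 0.031). Bmp2, an inducer of bone formation and so not an inhibitor, was at 16.45, 8.62 and 16.50 against 31.68, 22.73 and 37.62 TPM (-1.12, SE 0.26, adjusted p = 0.0443), and Dcn, the proteoglycan decorin, at 4113 ± 363 against 5401 ± 466 TPM (-0.39, SE 0.09, adjusted p = 0.0411). For these 3 genes each OM plus EMPA library lay below each OM library, a pattern that 21.8% of all listed genes shared. Without the filter on low values Dcn was not called (limma adjusted p = 0.0529). After median-ratio scaling Spp1 was still called (0.0387) and Dcn and Bmp2 were not (0.0741 and 0.0529). Each of the 5 calls was lost without most libraries. Spp1 held with OM replicate 2 or OM plus EMPA replicate 3 left out (otherwise 0.0622 to 0.1), Ggcx and Dcn without OM plus EMPA replicate 3 (otherwise 0.084 to 0.133 and 0.0628 to 0.124), Vkorc1 without OM plus EMPA replicate 1 (otherwise 0.0628 to 0.0835) and Bmp2 without OM replicate 2 (otherwise 0.0601 to 0.127).

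**Figure D4:**
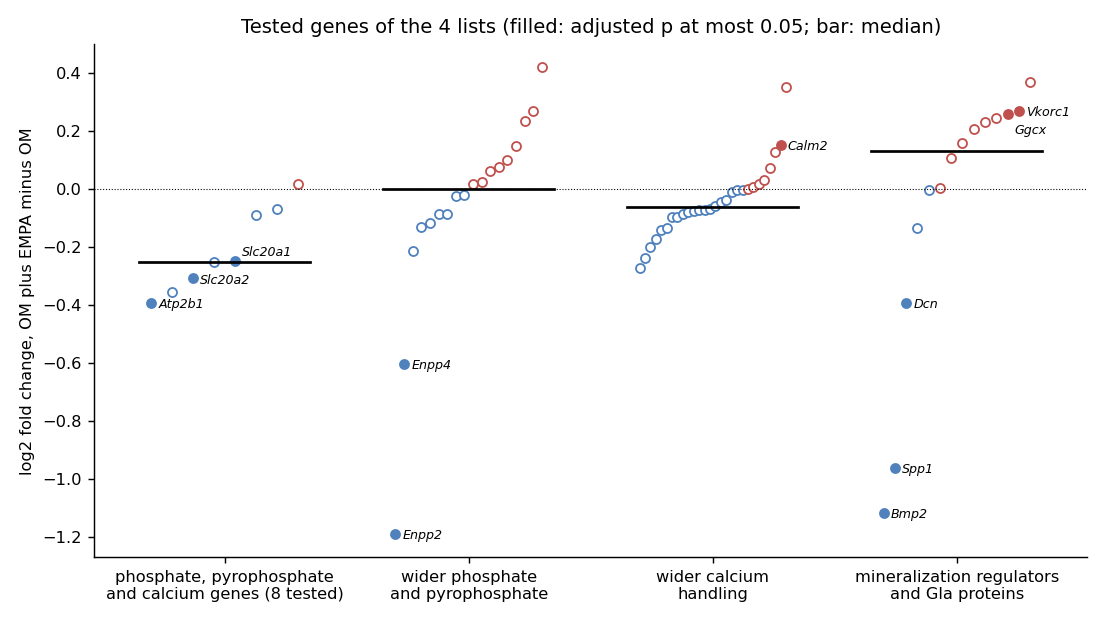
Difference in mean log2(TPM + 1) between OM plus EMPA and OM (vertical axis, negative where lower with empagliflozin) of each tested gene of the 4 lists, sorted within a list, in red above 0 and blue below 0, filled where the adjusted p is at most 0.05 and with the median as a bar. The 3 called genes among the 8 lie between -0.39 and -0.25, whereas Enpp2, Bmp2 and Spp1 of the wider lists lie at -1.19, -1.12 and -0.96.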

How the data were processed

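RNA from 6 VSMC samples, 3 per group, was sequenced in pairs of reads. DESeq2, RSEM, HISAT2 2.0.5 and fastp appear in the processing notes of the submitters, without roles (genome build not given in the sources used here). The authors deposited a table of TPM per gene and library, whose own fold changes, p-values and FDR were not used, and a second table of part of its genes that was not used. There were 0 columns of unknown sample. Samples were grouped by the treatment in the labels, whose titles name the medium Pi and whose protocol names it OM.

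Log2(TPM + 1) of 12564 genes, those whose mean reached 1 TPM, was fitted with limma 3.58.1 in R 4.3.3 (group as the single term, variance trend, 4 residual and 3.8 prior degrees of freedom). This log2 scale understates changes of low genes. The Benjamini-Hochberg adjustment ran over all tested genes. Intervals are at 95%. Ratios were compared by exact permutation tests with Python 3.11.15. TPM keep no depth, so no counting precision can be given. The fit was tested on simulated data with larger changes than those of the called members, so that run does not speak to changes of their size. Members and lists (3 lists of further genes and 5 of cell type markers) were chosen with earlier results of these data known. All 10 members are named, with each called gene of the lists and, per list, the 2 smallest p in each direction. Bmp2 was counted with the regulators. Median-ratio scaling, mitochondrial rescaling, another pseudocount (0.1), no filter, an adjusted p of 0.1, a replicate block and leaving out each library were tried.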

Additional observations from a re-analysis of the deposited data

How the results depend on the processing

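The count of 3 members called lower became 0 with median-ratio scaling. It became 5 with the replicate block, which added Enpp1 and Ankh (adjusted p = 0.0237 and 0.0283 from limma). With 1 library left out the count ranged from 0 to 2. It was 0 without replicate 3 of OM and without replicates 1 and 2 of OM plus EMPA. Without replicate 3 of OM plus EMPA the 2 were Slc20a1 and Ankh (adjusted p = 0.0337 and 0.0333 from limma). Slc20a2 and Atp2b1 were not called in that fit. The count stayed at 3 with a pseudocount of 0.1, without the filter and after rescaling without mitochondrial transcripts, and was 4 at an adjusted p of 0.1. Members called higher stayed at 0 in each of these fits. In the phosphate list 1 gene, Fam20c, was higher with the replicate block (0 in the main comparison), and the calls of Enpp2 and Enpp4 held. In the calcium list the 1 higher call became 0 without the filter and 0 without any 1 library, and 1 gene, Orai1, was lower with the replicate block. In the third list the 2 higher calls became 4 with median-ratio scaling, 4 after the mitochondrial rescaling, 5 with the replicate block, 5 at an adjusted p of 0.1 and 0 to 1 with 1 library left out. Its 3 lower calls became 1 with median-ratio scaling and 0 to 2 with 1 library left out. The share of all tested genes called was counted for the main and median-ratio fits only. In the other fits a change in these counts cannot be told apart from a general rise or fall in calls.

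Leaving out 1 library moved the log2 fold change of Xpr1 between -0.1223 and 0.007025, of Mgp between -0.2058 and 0.007473 and of Atp2a2 between -0.006049 and 0.05161. The log2 difference of the ratio Ankh/Enpp1, -0.10 in all libraries, ranged from -0.2127 to 0.04136 with 1 library left out, and that of Atp2b1/Atp2b4 was -0.04486 with 1 TPM added. With a pseudocount of 0.1 Atp2b4 had a log2 difference of -0.92 and Alpl of 0.52. The causes of these changes were not tested, beyond the lower number of samples in the fits that leave 1 out.

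Groups share replicate numbers, and no source says that a number marks a shared animal or day. Libraries with the same number deviated together weakly (correlations of 0.098, 0.162 and 0.0575 over tested genes), and 6 of 6 libraries correlated best with their own number, a hint from the data rather than from the design. With 3 samples per group, a difference as small as that of Mgp could not be resolved from the spread. The replicate block did not change this (adjusted p = 0.415 from limma).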
